A study of Danio rerio with 370 samples.

Results

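The immediate early and heat shock genes of the adult zebrafish forebrain were examined in single cells from 3 sorting gates. A gene was a member if its Ensembl symbol, with case ignored, began with *fos*, *jun*, *egr* and a digit, *ier*, *atf3*, *npas4*, *nr4a*, *dusp*, *btg*, *gadd45*, *hsp* or *dnaj*, and *hspg2* was left out. Of 32266 genes counted, 0.471% were members. They comprised 28 immediate early transcription factors and IER genes, 33 DUSP phosphatases and BTG and GADD45 growth arrest genes, 35 heat shock proteins and 52 DNAJ co-chaperones. The other 4 genes (*GADD45GIP1*, *IER3IP1*, *HSPBP1* and *HSPBAP1*) matched by the start of the symbol and were placed in none of these groups. Symbols are written as the symbol table gives them, in capitals where it holds the human form, and the Ensembl identifier is added where 2 genes share a symbol.

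All cells came from adult fish of either sex on an AB background that carried both *her4.1:mcherry*, in which the radial glia promoter *her4.1* drives mCherry, and *elavl3:gfp*, in which the neuronal promoter *elavl3* drives GFP. The radial glia (RG) gate took cells high in mCherry and without GFP, the mature neuron (MN) gate took cells with GFP and without mCherry, and the newborn neuron (NBN) gate took GFP-positive cells that still held low mCherry protein. Telencephalon and anterior diencephalon were dissociated with papain, at a temperature that was kept below the usual one to limit heat stress, live cells were sorted, and SMART-seq2 libraries, which cover whole transcripts, were read without molecular identifiers. The quality filters passed 73 RG cells and failed 98, passed 27 MN cells and failed 3, and passed 26 to 28 NBN cells of each fish and failed 5 in all. RG and NBN cells came from fish 1 to 5 of batch bfx855 and from batch bfx811, which was taken as 1 fish, and all MN cells came from bfx811. Reads of the passing cells were summed per fish and gate, so that the fish was the replicate (n = 6), and the p-values measure the spread between fish. The RG sums held 5 to 23 cells and 1539845 to 5473055 reads, and the NBN sums held 26 to 28 cells and 3228221 to 11933343 reads.

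Immediate early genes are transcribed within minutes of a stimulus without new protein synthesis. FOS and JUN proteins pair to form the transcription factor AP-1. EGR and NR4A factors follow calcium entry and growth factor signals, and NPAS4 follows calcium entry. DUSP phosphatases switch off the MAP kinases that induce immediate early genes. In neurons these genes are read as a mark of recent firing, and in freshly dissociated tissue the same genes, together with heat shock genes, are known to be induced by enzymes, warmth and sorting. Heat shock proteins fold and refold other proteins. The inducible HSP70 genes respond to heat shock factor, DNAJ proteins deliver clients to HSP70, HSP90 completes the folding of kinases and receptors, and small heat shock proteins hold unfolded chains. No undisturbed tissue was measured here, so what cells held before dissociation and what it added cannot be told apart.

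The gates were checked against their markers. The summed level of 8 radial glia marker genes (among them *her4.1*, *GJA1* and *FABP7*) ran from 18163 to 38495 CPM in RG and from 506 to 2593 CPM in NBN, where CPM is the reads of a gene scaled to a total of 1000000 reads on genes. The 3 neuronal markers found (*ELAVL3*, *map2* and *SV2A*) ran from 0 to 378 CPM in RG and from 1432 to 2122 CPM in NBN, and *SV2A* was at 0 in RG. The 4 oligodendrocyte lineage markers ran from 0 to 150.6 CPM in RG and from 15.8 to 352.9 CPM in NBN. Of these, *OLIG2* was read in 16 NBN cells and *SOX10* in 9, and each in 2 RG cells. The paper describes a small cluster of oligodendrocyte precursors, mostly from the NBN gate, and these cells were not removed here. The endothelial and hemoglobin markers found were at 0 in all gates. Microglia markers summed to 2008 CPM in RG of fish 1 and 2916 CPM in RG of bfx811, to at most 120.7 CPM in the other RG sums, and to 1.26 to 129.2 CPM in NBN. Among passing cells the median library held 211548 reads in RG and 270898 reads in NBN, and 1.37% and 1.48% of them were mitochondrial.

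Together the members took a large share of the reads, with a lowest, median and highest sum of 4.67%, 8.75% and 12.7% in RG, of 4.52%, 7.68% and 8.78% in NBN, and 2.25% in MN. The groups divided differently between the gates. Immediate early transcription factors and IER genes took 0.962% to 2.2% of reads in RG and 0.413% to 0.789% in NBN, and every RG sum lay above every NBN sum. Heat shock proteins took 3.16% to 9.26% in RG and 3.3% to 7.41% in NBN, and the gates overlapped. DNAJ genes took 0.242% to 1.25% in RG and 0.506% to 0.745% in NBN, and DUSP, BTG and GADD45 genes took 0.191% to 0.558% in RG and 0.15% to 0.314% in NBN, again with overlap. These shares are descriptions, without a test over the members.

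**Figure D1:**
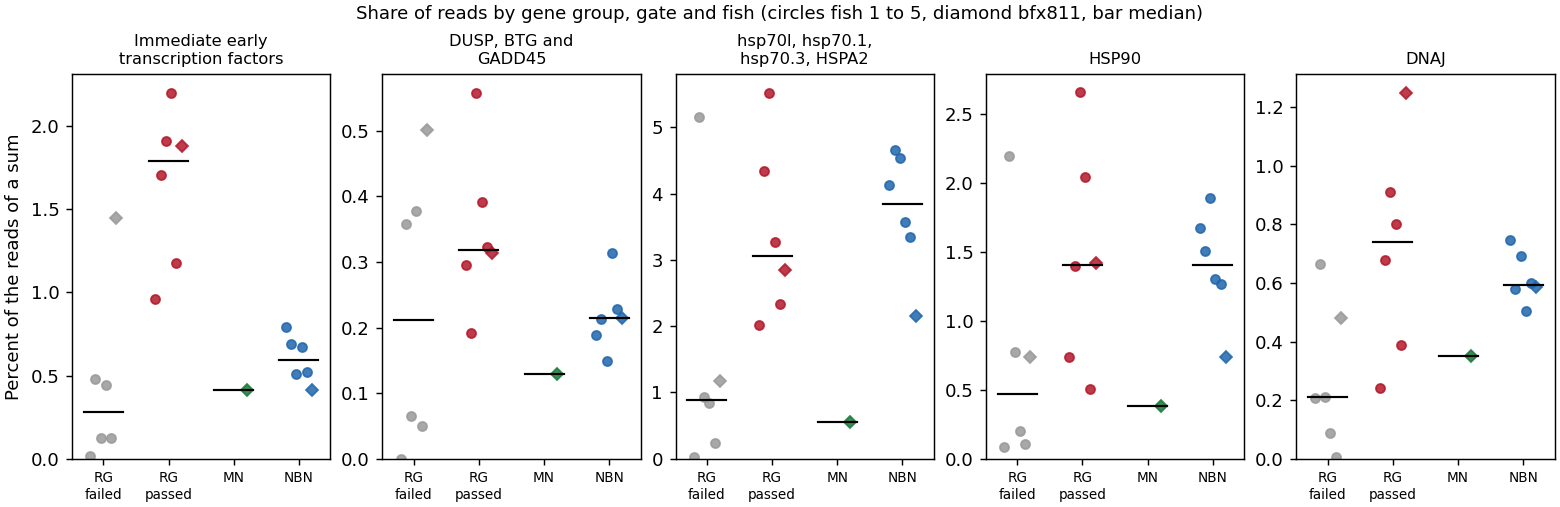
Percent of the reads of each sum (y axis, linear from 0) taken by 5 groups of members, for RG cells that failed or passed the quality filters, MN cells and NBN cells, with 1 point per fish (diamond bfx811) and a bar at the median. Immediate early transcription factors took 0.962% to 2.2% in passing RG cells and 0.413% to 0.789% in NBN cells without overlap, whereas the inducible HSP70 genes took 2.03% to 5.52% and 2.15% to 4.66%.

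In the comparison of RG with NBN over the whole table (edgeR quasi-likelihood test, Benjamini-Hochberg adjustment, threshold 0.05), 95 members had enough reads to be tested. Of these 7 were higher in RG, *FOS*, *JUNB* (ENSDARG00000104773), *egr1*, *BTG2*, *DUSP1*, *HSPB1* and *hspb15*, and 3 were lower, *NPAS4* (ENSDARG00000055752), *GADD45G* (ENSDARG00000019417) and *DNAJA2* (ENSDARG00000010745). That is 7.37% of tested members higher, beside 1.81% of all 8393 genes tested, and 3.16% lower, beside 6.66% of all genes. Over both directions 8.47% of all genes were called. The median log2 fold change, RG over NBN, was -0.31 over the tested members and -0.69 over all genes tested, and leaving out the scaling by trimmed means (TMM) moved the median of all genes by 0.21. Because the gates of a fish share an animal, the fit was repeated with a replicate block for the fish. With the block 7 members were higher and 6 lower, beside 2.36% and 9.97% of all genes, and 8 of the 10 calls were kept. Every RG sum lay above every NBN sum for 9 of the 95 members, beside 2.51% of all genes, and below for 6, beside 10.1%.

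**Figure D2:**
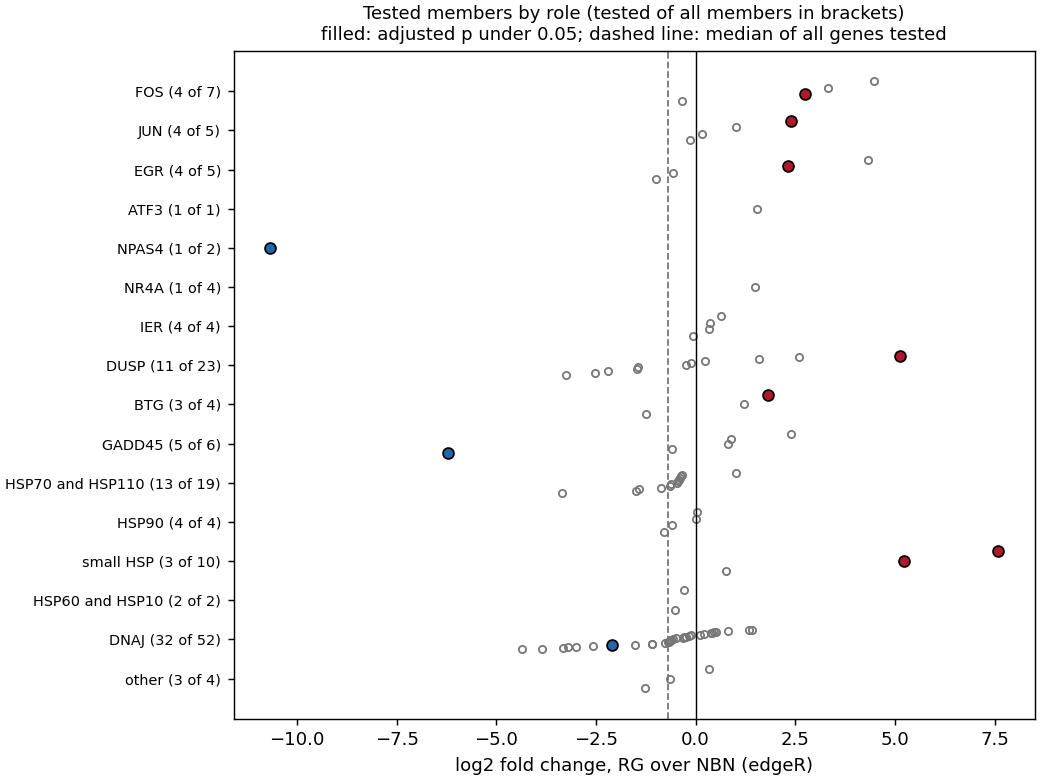
Log2 fold change, RG over NBN, of the 95 tested members (x axis) by role group (y axis, with tested and all members in brackets). Filled points had an adjusted p under 0.05, and the dashed line is the median of all genes tested at -0.69. Called members lie on the right for FOS, JUN, EGR, DUSP, BTG and small HSP genes and on the left for NPAS4, GADD45 and DNAJ genes, and no HSP70 or HSP90 gene was called.

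The AP-1 genes *FOS* and *JUNB* were higher in RG in 6 of 6 fish. *FOS*, the inducible partner of JUN, had a lowest, median and highest value over fish of 3109.6, 6515 and 9947 CPM in RG and 373, 854 and 1313 CPM in NBN. Every RG sum exceeded every NBN sum (log2 fold change 2.73 ± 0.42, SE, edgeR adjusted p = 0.000381, block 6.08e-05, where a block p comes from the fit with the fish term). *FOS* was detected in 55 of 73 RG cells (75.3%) and 86 NBN cells (52.4%), and leaving out any 1 fish kept the adjusted p at or below 0.00375.

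*JUNB* (ENSDARG00000104773), which encodes a JUN protein that can replace JUN in AP-1, had 1908, 2813 and 4648 CPM in RG and 179, 403 and 913 CPM in NBN, again without overlap (log2 fold change 2.40 ± 0.43, edgeR adjusted p = 0.00126, block 0.00204). Its other copy (ENSDARG00000074378) had 681, 1275 and 1899 CPM in RG and 33.7, 549.5 and 949 CPM in NBN and did not pass (log2 fold change 1.02 ± 0.61, edgeR adjusted p = 0.459), with overlapping gates and higher RG values in 5 of 6 fish. If the copies share near-identical stretches, the use of uniquely aligned reads affects both. *JUN* itself, the founding member of the family, had 1335, 2257 and 3294 CPM in RG and 463, 2217 and 2908 CPM in NBN and overlapped widely (log2 fold change -0.14 ± 0.39, edgeR adjusted p = 0.926). Its lowest NBN value, 463 CPM, was that of bfx811, and the other 5 NBN sums lay between 1942 and 2908 CPM.

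Of the other FOS genes, *FOSL1* had 58.1, 115.6 and 328 CPM in RG and 0, 0 and 19.8 CPM in NBN and *FOSB* had 31.5, 60 and 87.3 CPM in RG and 0, 1.05 and 20.3 CPM in NBN. Both were higher in RG in 6 of 6 fish with no overlap, but at edgeR adjusted p = 0.144 and 0.336 neither passed. In the fit with the fish term *FOSL1* passed (adjusted p = 0.0212) and *FOSB* did not (0.162). *FOSL2* had 0, 80.6 and 214 CPM in RG and 19.7, 86.4 and 211 CPM in NBN, with wide overlap.

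*ATF3*, a stress-induced repressor that also pairs with JUN, had 663, 1146 and 2371 CPM in RG and 52.4, 431 and 553 CPM in NBN. The gates did not overlap, and reads were found in 42 of 73 RG cells (57.5%) and 48 NBN cells (29.3%), yet the test gave an edgeR adjusted p of 0.0804 (log2 fold change 1.55 ± 0.51, block 0.0709). The NBN value of bfx811, 52.4 CPM, was the lowest of the 6, and within batch bfx855 alone *ATF3* passed (adjusted p = 0.047, 5 fish).

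The zinc finger factor *egr1*, a common marker of neuronal activity, had 195, 844 and 1459 CPM in RG and 61.8, 123.1 and 269 CPM in NBN. Its gates overlapped, although RG was higher in 6 of 6 fish (log2 fold change 2.33 ± 0.61, edgeR adjusted p = 0.0201, block 0.0446). Without fish 2 or fish 4 the adjusted p was 0.0842 and 0.0537. Its relative *egr4*, an EGR family member known from activated neurons, had 0, 213 and 1311 CPM in RG and 327, 439 and 1034 CPM in NBN, overlapped and did not pass (edgeR adjusted p = 0.866). The shares of cells ran in opposite directions, with *egr1* in 43 of 73 RG cells (58.9%) and 33 NBN cells (20.1%) and *egr4* in 14 of 73 RG cells (19.2%) and 68 NBN cells (41.5%). Each of these differences in share had the same sign in 6 of 6 fish, before and after thinning each cell to 20000 reads. The exact two-sided sign-flip p was 0.031 without adjustment, the smallest that 6 fish allow, and 0 genes passed after adjustment. Of 17533 genes, 2.3% had a higher and 9.14% a lower share in RG in 6 of 6 fish.

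*NPAS4*, a neuronal factor that is induced by calcium entry, went the other way. *NPAS4* (ENSDARG00000055752) had 0, 0 and 0.847 CPM in RG and 2.43, 236 and 705 CPM in NBN, with no overlap, although the NBN sum of fish 3 was low. In RG 3 reads were found, all in 1 cell of bfx811, and in NBN 12452 reads were found in 47 cells (28.7%). Over the pooled gates the NBN level was 1692 times the RG level, with a 95% exact interval of 579 to 8208 that covers counting error only. The gates differed at edgeR adjusted p = 0.000302 (block 0.000207), and without fish 4 the gene fell under the filter on low counts and was not tested. Its second copy (ENSDARG00000087753) had 1 read in RG and 1313 reads in 8 NBN cells and was not tested.

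Within the NBN gate, *FOS* was read in 34 of 47 cells with *NPAS4* (72.3%) and in 52 cells without it (44.4%), and *JUNB* (ENSDARG00000104773) in 70.2% and 40.2%. *hsp70l* was read in 100% and 96.6% of the same cells. Nearly all NBN cells held it, so its share left little room for a difference. The median depth was 242719 reads in cells with *NPAS4* and 288859 reads in cells without it. In MN of bfx811, *hsp70l* was read in 100% of 10 cells with *NPAS4* and in 70.6% of 17 cells without it. There *FOS* was read in 60% and 41.2%, and *JUNB* in 60% and 58.8%. All these shares are over cells that are not independent within a fish, and they are descriptions.

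**Figure D3:**
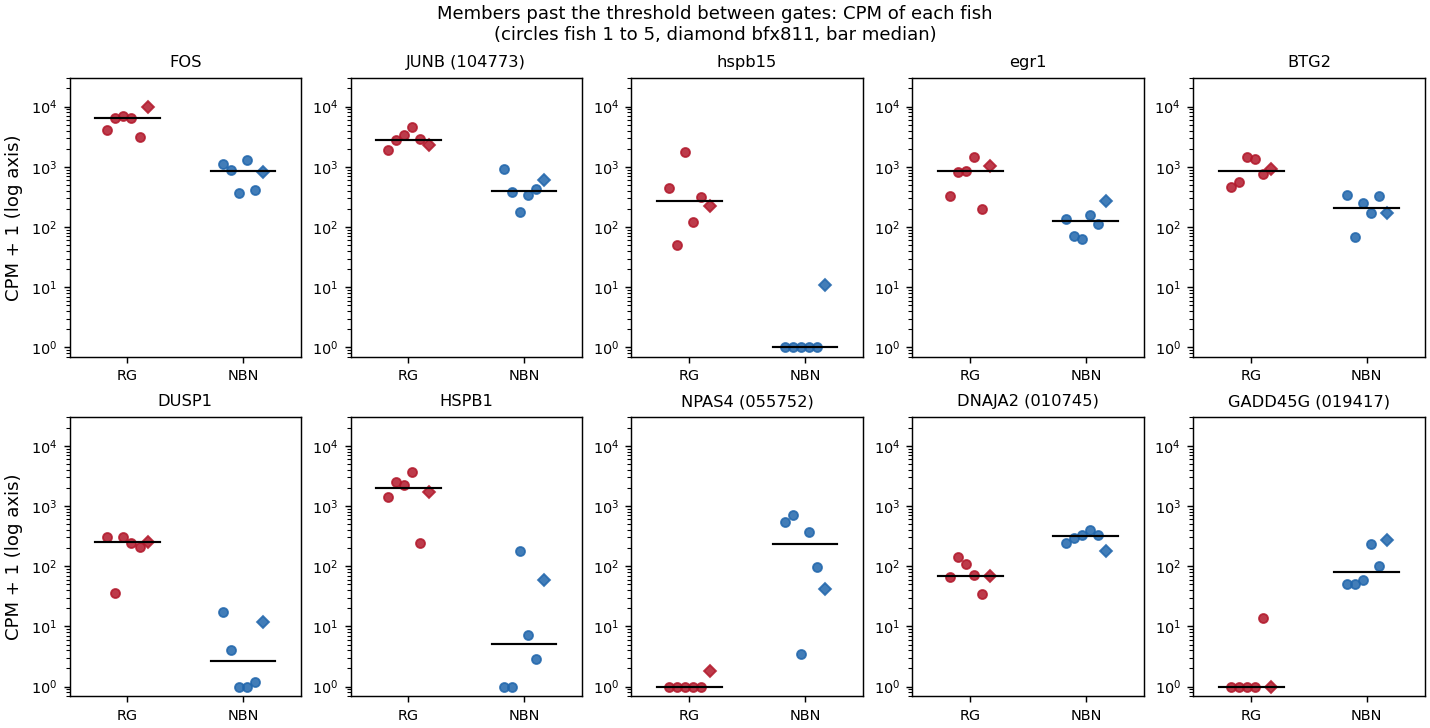
CPM + 1 (y axis, log scale) of the 10 members past the threshold between gates, in RG and NBN, with 1 point per fish (circles fish 1 to 5, diamond bfx811) and a bar at the median. *FOS*, *JUNB*, *hspb15*, *BTG2*, *DUSP1* and *HSPB1* show no overlap with RG above, *NPAS4*, *DNAJA2* and *GADD45G* show none with RG below, and *egr1* overlaps.

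The NR4A genes, orphan nuclear receptors of the same response, and the IER genes were low or variable. *NR4A1* had 0, 42.5 and 82.5 CPM in RG and 0, 13.9 and 35.5 CPM in NBN and did not pass (edgeR adjusted p = 0.775), and it was read in 9 of 73 RG cells (12.3%) and 10 NBN cells (6.1%). *NR4A3* reached 32 CPM in RG and 90 CPM in NBN and was not tested. *IER5*, a regulator of heat shock factor, had 39.2, 275 and 643 CPM in RG and 19.2, 175 and 312 CPM in NBN, and *ier2a* had 0, 140.8 and 240.3 CPM in RG and 0.168, 69.1 and 277 CPM in NBN. Neither differed beyond the spread between fish (edgeR adjusted p = 0.773 and 0.94).

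Genes that restrain signaling and division held 2 calls upward and 1 downward among 19 tested members. That is 10.5% higher and 5.26% lower, beside 1.81% and 6.66% of all genes. *DUSP1*, a nuclear phosphatase of MAP kinases and itself an immediate early gene, had 34.5, 249.7 and 305 CPM in RG and 0, 1.64 and 16.3 CPM in NBN, without overlap (log2 fold change 5.13 ± 1.44, edgeR adjusted p = 0.0301, block 0.0233). It was read in 25 of 73 RG cells (34.2%) and 5 NBN cells (3.05%). The call was lost without fish 2, fish 5 or bfx811 (adjusted p = 0.0656, 0.0553 and 0.0656), and the lowest RG value, 34.5 CPM, was that of fish 2.

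*DUSP1* was the only DUSP gene called in this fit, and of the family 11 of 23 were tested and 19 had any read. *DUSP7*, an ERK phosphatase of the cytoplasm, had 0, 41 and 558 CPM in RG and 38, 98.4 and 179.6 CPM in NBN and did not pass (edgeR adjusted p = 0.958). *DUSP5*, a nuclear ERK phosphatase, was lower in RG in 5 of 6 fish, at edgeR adjusted p = 0.427 without and 0.0373 with the fish term.

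The antiproliferative genes *BTG2* and *BTG1* had opposite signs. *BTG2* had 469.5, 845 and 1439.9 CPM in RG and 66.5, 209.9 and 342 CPM in NBN, without overlap (log2 fold change 1.81 ± 0.50, edgeR adjusted p = 0.0286), but in the fit with the fish term its adjusted p was 0.0617, and it was 0.0528 without fish 2, 0.112 without fish 4 and 0.056 without bfx811. *BTG1* had 122.7, 358 and 458 CPM in RG and 479, 648 and 982 CPM in NBN, where every RG sum lay below every NBN sum, and did not pass (log2 fold change -1.26 ± 0.47, edgeR adjusted p = 0.132). The difference between their fold changes was not tested.

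Among the GADD45 genes, which respond to stress and DNA damage, *GADD45G* (ENSDARG00000019417) had 0, 0 and 12.6 CPM in RG and 49.2, 79.7 and 275 CPM in NBN. In RG its 45 reads came from 1 cell of fish 5, and in NBN it was read in 32 cells (19.5%). The gates did not overlap (edgeR adjusted p = 0.0277, block 0.00511), but leaving out fish 1, fish 2, fish 3, fish 4 or bfx811 raised the adjusted p to between 0.0564 and 0.144. *GADD45B* (ENSDARG00000027744) had 512, 1271 and 2585 CPM in RG and 188, 421 and 1715 CPM in NBN and overlapped (edgeR adjusted p = 0.429), with a high NBN value of 1715 CPM in fish 4.

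Of the heat-inducible chaperones, 4 HSP70 genes, *HSP90AA1* and *dnajb1b* were high in both gates, and none of them was called. The 4 genes *hsp70l*, *hsp70.1*, *hsp70.3* and *HSPA2*, whose products are HSP70 chaperones, together took 2.03%, 3.06% and 5.52% of reads (lowest, median and highest fish) in RG and 2.15%, 3.85% and 4.66% in NBN. The gates overlapped over most of their range. If these genes share near-identical stretches, the use of uniquely aligned reads affects each gene and also their sum. The symbol *HSPA2* is the one the table gives to ENSDARG00000092362.

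Singly, *hsp70l* had 7453, 11757 and 25571 CPM in RG and 7035, 15448 and 21844 CPM in NBN (log2 fold change -0.45 ± 0.31, edgeR adjusted p = 0.551), and *hsp70.3* had 4495, 9057 and 12894 CPM in RG and 5394, 10029 and 11569 CPM in NBN (log2 fold change -0.35 ± 0.30, edgeR adjusted p = 0.657). *HSPA2* and *hsp70.1* gave log2 fold changes of -0.35 ± 0.28 and -0.38 ± 0.29. All 4 estimates lay above the median of all genes tested and below 0, and none passed the test. *hsp70l* was read in 67 of 73 RG cells (91.8%) and in 97.6% of NBN cells, so few passing cells of either gate lacked it.

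The RG sums of 2 stress-inducible chaperones ranged widely over fish. *HSP90AA1*, the stress-inducible cytosolic HSP90, had 1446, 10222 and 21037 CPM in RG and 5702, 8657 and 9971 CPM in NBN and an SD over fish of 7453 CPM in RG and 1725 CPM in NBN (n = 6 each). *dnajb1b*, the co-chaperone that starts HSP70 refolding, had 1797, 4556 and 9868 CPM in RG and 2345, 3345 and 5059 CPM in NBN. For both genes the low RG values were those of fish 1 and fish 5, whose RG sums were also the lowest for the 4 HSP70 genes together, at 2.03% and 2.34% of reads. Their NBN sums, at 4.13% and 3.35%, were within the range of the other fish. Neither gene passed between gates (edgeR adjusted p = 0.98 and 0.902).

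**Figure D4:**
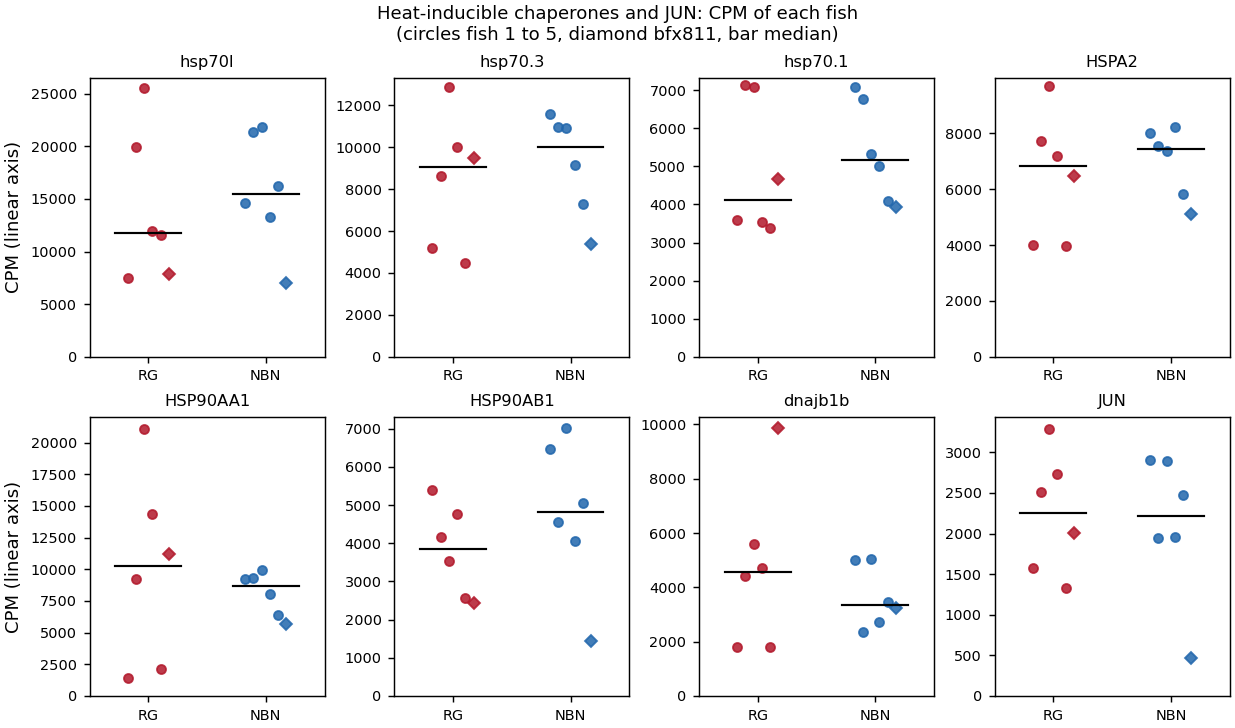
CPM (y axis, linear from 0, a separate scale for each gene) of 7 heat-inducible or abundant chaperone genes and *JUN* in RG and NBN, with 1 point per fish (circles fish 1 to 5, diamond bfx811) and a bar at the median. The gates overlap for each of the 8 genes, and the NBN value of bfx811 is the lowest NBN value for 7 of them.

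The constitutive chaperones did not pass either. *HSP90AB1*, the constitutive cytosolic HSP90, had 2445, 3847 and 5386 CPM in RG and 1432, 4809 and 7023 CPM in NBN (edgeR adjusted p = 0.435). *HSPA5* (BiP), the HSP70 of the endoplasmic reticulum, had 499, 929 and 2335 CPM in RG and 774, 1389.5 and 2433 CPM in NBN (edgeR adjusted p = 0.737). The mitochondrial chaperonin pair *HSPD1* and *HSPE1* had 205, 299.6 and 559 CPM in RG and 157.7, 348 and 613 CPM in NBN, and 97.4, 206 and 310.1 CPM in RG and 120.6, 229 and 452 CPM in NBN. The gates overlapped for all 4 genes. Of 13 tested HSP70 and HSP110 genes and 4 tested HSP90 genes none was called, beside 8.47% of all genes. In the fit with the fish term *HSPA4L*, an HSP110 nucleotide exchange factor, was lower in RG (adjusted p = 0.029).

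Both calls among the 22 tested heat shock proteins fell on small heat shock proteins, *HSPB1* and *hspb15*. That is 9.09% higher in RG, beside 1.81% of all genes. *HSPB1*, the HSP27 chaperone that stabilizes actin, had 245, 1958 and 3717 CPM in RG and 0, 4.04 and 181 CPM in NBN, without overlap (log2 fold change 5.22 ± 1.48, edgeR adjusted p = 0.0327, block 0.000885). It was read in 34 of 73 RG cells (46.6%) and 8 NBN cells (4.88%). Without fish 2, fish 4 or bfx811 the adjusted p was 0.0531, 0.1 and 0.0892, with the same sign.

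*hspb15*, a small heat shock protein gene of fish, had 49.7, 269 and 1739 CPM in RG and 0, 0 and 9.91 CPM in NBN. All 32 NBN reads came from 1 cell of bfx811 and the other 5 NBN sums were at 0, while RG cells of every fish held reads, 21 of 73 cells in all. Over the pooled gates the RG level was 504 times the NBN level, with a 95% exact interval of 357 to 737 for counting error, and the test gave an edgeR adjusted p of 0.0108 (block 0.000114) that stayed at or below 0.0326 without any 1 fish. *HSPB8*, the partner of BAG3 in the removal of misfolded proteins, fell under the filter on low counts. It had 1.3, 131.5 and 268 CPM in RG and 0.177, 0.251 and 0.399 CPM in NBN and was read in 17 of 73 RG cells (23.3%) and 12 NBN cells (7.32%), where the NBN level was at most 0.399 CPM, and without the filter it was called (adjusted p = 0.000116). Of the other 7 small heat shock protein genes *hspb11* alone was tested and did not pass (edgeR adjusted p = 0.899).

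Of 52 DNAJ genes 32 were tested, and their median log2 fold change was -0.59, beside -0.69 over all genes. *DNAJA2* (ENSDARG00000010745), a co-chaperone of constitutive HSP70, had 33.9, 69 and 143.7 CPM in RG and 181, 311 and 396 CPM in NBN, with no overlap (log2 fold change -2.09 ± 0.56, edgeR adjusted p = 0.0221). With the fish term its adjusted p was 0.0914, and it was 0.0666, 0.0762, 0.133 and 0.139 without fish 1, 3, 4 and 5. The other gene with the symbol *DNAJA2* (ENSDARG00000104066), at 290.9 CPM in NBN of bfx811, was not called. *DNAJC5* (ENSDARG00000042948), the cysteine string protein of synaptic vesicles in other vertebrates, had 0, 0 and 41.2 CPM in RG and 109.3, 209 and 326 CPM in NBN, also with no overlap, and passed with the block and not without it (edgeR adjusted p = 0.102, block 0.00851). The other gene with the symbol *DNAJC5* (ENSDARG00000004836), at 169.4 CPM in NBN of bfx811, was not called. *dnaja* had 112.3, 994 and 1990.1 CPM in RG and 126.5, 270.04 and 793 CPM in NBN and did not pass (edgeR adjusted p = 0.264).

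The share of cells with at least 1 read was compared within each fish. Of the members detected in at least 3 cells, 8 had a higher share in RG in 6 of 6 fish (*egr1*, *FOSB*, *FOSL1*, *JUNB* ENSDARG00000074378, *DUSP1*, *HSPB1*, *HSPB8* and *hspb15*), beside 2.3% of 17533 genes. After each cell was thinned to 20000 reads, 7 of the 8 remained, without *HSPB8*, beside 2.04% of genes. Within bfx855 the share was higher in RG in 5 of 5 fish for 9 members, beside 2.65%. In 10 members the share was lower in RG in 6 of 6 fish, beside 9.14% of genes, among them genes with the symbols *NPAS4*, *GADD45G*, *egr4*, *DNAJA2* and *DNAJC5*. All of these but *egr4* are symbols shared between members, so the result need not hold for every copy. The exact sign-flip test over 6 fish cannot go below p = 0.031, so after adjustment over all genes 0 passed. The 18 members under an unadjusted p of 0.05 were these 8 and 10. A gene with 1 sign in 6 of 6 fish always gets p = 0.031 in this test. Of the 17533 genes, 2.3% (higher in RG) and 9.14% (lower in RG) got it as well. Whether the 18 members exceed these shares was not tested. *FOS* and *JUNB* (ENSDARG00000104773) had a higher share in 5 of 6 fish.

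In single cells the shares of both responses were positively correlated. Within each fish and gate, the share of reads taken by immediate early transcription factors and IER genes was compared with the share taken by the 4 inducible HSP70 genes. Spearman's rho over cells was 0.473 to 0.900 in the 6 RG groups (5 to 23 cells) and 0.403 to 0.663 in the 6 NBN groups (26 to 28 cells). Both shares are parts of the same library, and rho between total reads and the HSP70 share was -0.021 to 0.607 in RG and -0.317 to 0.250 in NBN. Between total reads and the immediate early share rho was -0.016 to 0.755 in RG (median 0.492) and -0.245 to 0.222 in NBN (median -0.016), beside medians of 0.391 in RG and -0.031 in NBN for the HSP70 share. Correlations over cells are descriptions, since cells of a fish are not independent.

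The RG cells fell over a wide range. Immediate early reads were above 1% in 39 of 73 RG cells (53.4%) and in 26 NBN cells (15.9%), with medians over cells of 1.15% and 0.422%. Both the immediate early and the inducible HSP70 share were below 0.1% in 11 of 73 RG cells, which came from all 6 fish, and in 6 NBN cells (3.66%), which came from fish 4, fish 5 and bfx811. These 11 RG cells held 129858 to 321368 reads and 1.06% to 6.43% mitochondrial reads, within the filters. The radial glia gene *her4.1* was read in 7 of these 11 cells and in 61 of the other 62 RG cells. A set of 6 genes with higher RG values was chosen after their values were seen (*FOS*, *JUNB* ENSDARG00000104773, *egr1*, *ATF3*, *BTG2* and *DUSP1*). That choice favors RG, and cells of a fish are not independent, so the counts are descriptions. After thinning, 3 or more of the 6 were detected in 50 of 73 RG cells (68.5%) and 41 NBN cells (25%). All 6 were detected in 8 RG cells and 1 NBN cell, and none in 15 RG cells (20.5%) and 37 NBN cells (22.6%).

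**Figure D5:**
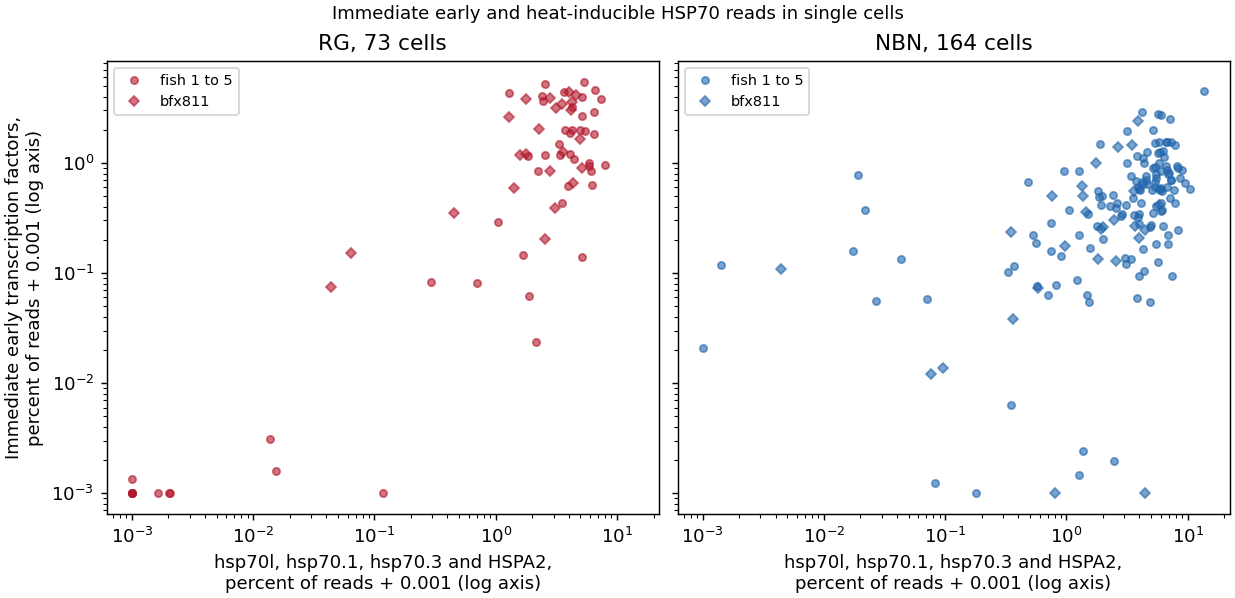
Percent of the reads of each cell taken by immediate early transcription factors and IER genes (y axis) against the percent taken by *hsp70l*, *hsp70.1*, *hsp70.3* and *HSPA2* (x axis), both with 0.001 added and on log axes, for each RG and NBN cell that passed the filters (diamonds bfx811). Most cells lie above 1% on the x axis in both panels, RG cells reach higher on the y axis, and 11 RG cells lie below 0.1% on both axes.

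Within RG the cells were split by a read of *ccnd1*, the cyclin that the study used to mark proliferating radial glia, and summed in the 5 fish with at least 3 cells of each kind. Of 59 tested members 0 were called (edgeR, and 0 also with DESeq2 and with the block, where 0.375% of genes were called), 0 were under an unadjusted p of 0.05, and 0.0535% of 3737 genes were called. *FOS* had 3158, 6922, 5988, 2513 and 11921 CPM in ccnd1-positive RG of fish 1, 2, 4, 5 and bfx811, and 4550.2, 5422, 6817, 3355 and 8033 CPM in ccnd1-negative RG (log2 fold change 0.11 ± 0.44). *BTG2* gave log2 fold change 0.09 ± 0.81 and *hsp70l* log2 fold change 0.27 ± 0.34. The errors leave differences of these sizes undetectable at this depth. In single cells, the inducible HSP70 share was below 0.1% in 1 of 31 ccnd1-positive and 11 of 42 ccnd1-negative RG cells. The immediate early share was below 0.1% in 5 and 11 of them. Of the 11 RG cells low in both shares, 1 held a *ccnd1* read. Median depth was 187497 reads in ccnd1-positive and 282001 reads in ccnd1-negative cells. These counts of cells are descriptions and were not tested.

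Within NBN, 48 cells held a read of *EBF3* and none of *tubb5*, 65 held *tubb5* and no *EBF3*, 32 held both and 19 neither. These genes mark the kinds of newborn neuron that the study described. In the 4 fish with at least 3 cells of each kind (fish 2, 4, 5 and bfx811), 1 of 66 tested members was called lower in EBF3-read cells and none higher, beside 0.601% and 0.301% of 5656 genes. The called gene was *HSP90B1* (GRP94), the HSP90 of the endoplasmic reticulum, with 124.2, 111.2, 122.1 and 57.5 CPM in EBF3-read cells and 1478, 1441, 2184 and 386 CPM in tubb5-read cells of those fish. The classes did not overlap (log2 fold change -3.97 ± 0.62, edgeR adjusted p = 0.00693, block 0.00605). Without fish 2, 4 or 5 it did not pass (adjusted p = 0.14, 0.129 and 0.101). Without bfx811 4 members passed (5.48% of those tested, beside 1.37% of all genes).

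*HSP90AB1* had 2462, 2595, 2725 and 984 CPM in EBF3-read cells and 7443, 6313, 7282 and 2201 CPM in tubb5-read cells, and passed with the block (edgeR adjusted p = 0.118 without and 0.0112 with it), as 1 of 2 members lower there, beside 0.548% of genes. *HSPA5* had 280.4, 1078, 275 and 467 CPM, against 2479, 1435, 3113 and 1039.9 CPM (edgeR adjusted p = 0.0919). *JUN* had 633, 1537, 238 and 459 CPM, against 2845, 3116, 5584 and 647 CPM (edgeR adjusted p = 0.137). Each of the 3 genes was lower in EBF3-read cells in 4 of 4 fish. The inducible HSP70 genes took 4.17, 3.8, 1.19 and 3.23% of reads in EBF3-read cells and 5.09, 3.51, 5.55 and 1.44% in tubb5-read cells, with no common direction. The median depth was 203674 reads per EBF3-read cell and 339844 reads per tubb5-read cell, and the tubb5-read sum of bfx811 held 5 cells.

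Since the NBN gate mixes both kinds, RG was also compared with each kind alone, an alternative added after the data were seen. *FOS*, *JUNB* (ENSDARG00000104773) and *hspb15* were called higher in RG against either kind. Against tubb5-read cells 6 of 76 tested members were called (7.89%), beside 5.29% of all genes in that fit, *egr1* and *NPAS4* among them, and *JUN* was not. Against EBF3-read cells 12 of 86 tested members were called, all higher in RG and among them *JUN*, *HSP90B1*, *FOSB* and *FOSL1*, and *NPAS4* was not tested. That is 14% higher and none lower, beside 9.64% of all genes higher and 3.89% lower in that fit (13.5% in both directions). Whether the members differ from all genes in this was not tested.

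Mature neurons could be set against newborn neurons in bfx811 alone, with 27 cells of each gate and no replicate, so no test was made. The MN cells were read more deeply, with 5154208 reads in their sum against 3228221 reads in the NBN sum. Without molecular identifiers, reads copied from 1 molecule cannot be told apart, so all intervals given for reads cover error in counting reads only, not molecules. Intervals for cells take the cells of a fish as independent. Neither kind covers the spread between fish. The inducible HSP70 genes took 0.556% of reads in MN and 2.15% in NBN. *hsp70l* had 1811 CPM in MN (exact Poisson 95% interval 1775 to 1848) and 7035 CPM in NBN (6943 to 7127). *dnajb1b* had 674 CPM in MN and 3229.6 CPM in NBN, and *HSP90AA1* had 1618 CPM in MN and 5702 CPM in NBN. The HSP70 share was below 0.1% in 12 of 27 MN cells and in 3 of 27 NBN cells of the same fish.

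Immediate early transcription factors and IER genes took 0.414% of reads in MN and 0.413% in NBN of bfx811. The cells were less alike than the sums, with a median over cells of 0.109% in MN and 0.25% in NBN. This share was below 0.1% in 10 of 27 MN cells and 6 of 27 NBN cells, and above 1% in 6 MN cells and 3 NBN cells. *FOS* had 1095 CPM in MN and 816 CPM in NBN, and *NPAS4* (ENSDARG00000055752) had 197 CPM in MN and 40.9 CPM in NBN. *NPAS4* was read in 10 of 27 MN cells (37%, Clopper-Pearson 95% interval 19.4% to 57.6%) and in 5 of 27 NBN cells (18.5%, 6.30% to 38.1%), and these intervals overlap. These shares of cells are given without thinning, and the part of the greater depth of MN in them was not tested.

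RG cells that failed the quality filters held few reads of the members. A read of an immediate early transcription factor or IER gene was lacking in 69 of 98 failed RG cells and in 8 of 73 passing RG cells, and reads of the 4 inducible HSP70 genes in 56 of 98 and 5 of 73. The median failed RG cell had 57704 reads, 314 genes and 18.3% mitochondrial reads, against 211548 reads, 1610 genes and 1.37% in passing RG cells, and the filters used these quantities. Their part in the difference was not tested.

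Summed per fish, *HSPB1* had 2.47, 0, 3.61, 0, 1.1 and 124.04 CPM in failed RG cells of fish 1 to 5 and bfx811, below each of the values in passing RG cells (log2 fold change -6.21 ± 1.52, edgeR adjusted p = 0.0156). *ATF3* was lower as well (log2 fold change -5.18 ± 1.37, edgeR adjusted p = 0.0255). Of 53 tested members these 2 were lower and none higher, beside 4.27% and 0.891% of 2695 genes, and with the block 9 members were lower (beside 5.64%), *FOS*, *JUN*, *hsp70l* and *dnajb1b* among them. The failed cells of fish 2 summed to 5.16% of reads on the 4 HSP70 genes, against 4.34% in its passing RG cells. In that failed sum 1 cell held 12.1% of its reads on these genes, and no other cell held above 0.723%. *ATF3* lost its call without fish 2, 4 or 5 (adjusted p = 0.0575, 0.0657 and 0.0814), while 4 members were called without fish 1 and 3 without bfx811.

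Other genes of the same responses were taken from lists made for this comparison. Of 24 tested genes of the activity and dissociation response 2 were higher in RG and none lower, beside 1.81% and 6.66% of all genes, with a median log2 fold change of 0.87. *CEBPD*, a stress-induced transcription factor, averaged 682 ± 222 CPM in RG and 2.55 ± 5.6 CPM in NBN (SD, n = 6 each, edgeR adjusted p = 0.00378, block 7.37e-05). *MYC* (ENSDARG00000007241), an early growth response gene, averaged 412 ± 548 CPM in RG and 34.7 ± 20.1 CPM in NBN (edgeR adjusted p = 0.0236, block 0.0752). Its RG value was 1497 CPM in fish 3, from a sum of 5 cells, and 64.9 to 401 CPM in the other fish. The other gene with the symbol *MYC* (ENSDARG00000045695) averaged 90.1 CPM in RG and 171.3 CPM in NBN. That gene was higher in RG in 2 of 6 fish and did not pass (edgeR adjusted p = 0.79). The neuronal activity genes *HOMER1*, a synaptic scaffold, and *BDNF*, a neurotrophin, were lower in RG in 6 of 6 fish and passed with the block (edgeR adjusted p = 0.0702 without and 0.00511 with it, and 0.0928 and 0.0241). In the other direction *CEBPB*, a transcription factor related to CEBPD, and *CCN1*, a secreted matrix protein, passed with the block (edgeR adjusted p = 0.0878 without and 0.0194 with it, and 0.0886 and 0.00636), so that 3 genes of this list were higher and 2 lower there. Of 27 tested chaperone and stress response partners 1 was higher and none lower, with a median of -0.63. It was *BAG3*, the HSP70 and HSPB8 co-chaperone, with 1423 ± 729 CPM in RG and 144.3 ± 69.9 CPM in NBN (SD, n = 6 each, edgeR adjusted p = 0.000757, block 0.00132). Over all genes tested the median was -0.69.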

How the data were processed

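SMART-seq2 libraries were made from single sorted cells. The authors aligned reads with GSNAP (2017-08-15) to GRCz10, counted uniquely aligned reads per Ensembl gene with featureCounts (1.5.3), and deposited raw counts for all 370 cells, without filtering or normalization. The submitters' processing notes also name FastQC. Strand use in counting is not given in the sources used here. Of 32266 genes 26433 had a symbol.

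Cells passed with a log10 of reads above 4.5, between 2.7 and 3.9 for the log10 of genes above 1 read, under 50% of reads in the 50 most abundant genes, under 20% on 13 mitochondrial genes and over 20% mapped. The paper's limit on spike-in reads was not applied. Passing cells numbered 73 in RG, 164 in NBN and 27 in MN, and the paper's counts per gate differ from these. Counts were summed per fish and class (at least 3 cells for classes within a gate) and tested with edgeR 4.0.16 (quasi-likelihood, TMM, its filter on low counts, Benjamini-Hochberg over all genes, 0.05) in R 4.3.3. When the fit was run on simulated counts, many changed genes were not called, so a gene that did not pass may still differ. CPM divides by all gene reads of a sum. Folds of genes near 0 depend on the prior count of the fit. Shares were compared by an exact two-sided sign-flip test with scipy 1.17.1 and numpy 2.4.6, on tables read by pandas 2.3.3 in Python 3.11.15 and drawn by matplotlib 3.10.9.

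RG and NBN cells of a fish come from the same animal, which pairs the sums, by the number in the cell names for fish 1 to 5. The deviations of paired sums from their gate means correlated at 0.0193, -0.0169, -0.00798, 0.0268 and -0.00951 in fish 1 to 5 and 0.0638 in bfx811 over 8393 genes. The study's methods use no block, so the block was an alternative, beside DESeq2 1.42.0, no TMM, no filter, no mitochondrial genes, all cells, thinned cells, plate labels, pooled neurons, 1 kind of NBN, and leaving out each fish. Named were members past the threshold, and per role group those 2 with the highest mean CPM. Other members were named after their values were seen. The members and lists were chosen with earlier results of these data known.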

Additional observations from a re-analysis of the deposited data

Results flagged for a closer look

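Values of each gate were screened for a fish that stood apart from the other 5, in 74 groups of 6 fish, and 11 had one. For normally distributed values about 1 in 20 groups would be flagged. That rate need not hold here, since several flagged groups were at 0 in the other 5 fish. In RG, *DUSP1* was low in fish 2, at 34.5 CPM. *DUSP7* was high in RG of fish 3, at 558 CPM, in a sum of 5 cells, and *hspb15* was high in the same sum, at 1739 CPM. *NR4A3* was high in RG of fish 4, at 32 CPM. *GADD45G* (ENSDARG00000019417) was at 12.6 CPM in RG of fish 5 and at 0 in the other RG sums. *NPAS4* was at 0.847 CPM (ENSDARG00000055752) and 0.282 CPM (ENSDARG00000087753) in RG of bfx811 and at 0 in the other RG sums.

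In NBN, *egr4* was high in fish 1, at 1034 CPM, *GADD45B* (ENSDARG00000027744) was high in fish 4, at 1715 CPM, and *HSPB1* was high in fish 3, at 181 CPM. *hspb15* was at 9.91 CPM in NBN of bfx811, from 1 cell, and at 0 in the other NBN sums. No group of members summed to a share of reads that stood apart in this way.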

How the results depend on the processing

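Between RG and NBN, 10 members were called (10.5% of those tested, beside 8.47% of all genes). With the fish as a replicate block 13 were called (13.7%, beside 12.3%), of which 8 were shared. Leaving out 1 fish gave 5 to 9 calls, with 5 without fish 2 (5.21% of tested members, beside 8.21% of all genes). The share was 8.91% without fish 1, beside 8.4%, and 8.08% without fish 3, beside 8.16%. It was 7.45% without fish 4, beside 8.71%, and 8.51% without fish 5, beside 8.06%. Within batch bfx855 (without bfx811) 8 were called (8.7%, beside 10.7%). DESeq2 and no filter on low counts gave 14 each (14.7% and 10.1% of tested members, beside 13% and 5.56% of all genes). Thinned cells gave 13 (18.8%, beside 14.4%), no TMM 11 (11.6%, beside 8.95%) and all cells 11 (11%, beside 8.98%). No mitochondrial genes gave 10 (10.5%, beside 8.47%), pooled neurons 10 (10.3%, beside 8.79%) and plate labels 8 (7.27%, beside 10.1%). RG against tubb5-read NBN cells alone gave 6 (7.89% of tested members, beside 5.29% of all genes). Against EBF3-read cells 12 were called, all higher in RG (14%, beside 9.64% of all genes higher and 13.5% in both directions). Both of these comparisons were chosen after seeing the data. *FOS*, *JUNB* (ENSDARG00000104773) and *hspb15* passed in all 17 alternatives and *NPAS4* in the 14 that tested it, while every other called member lost its call in at least 3. No called member changed sign.

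Over all genes, DESeq2 called 1090 and no filter 1232, against 711. For EBF3-read against tubb5-read NBN cells, 1 member was called, 5 with DESeq2 (7.81%, beside 4.44% of all genes), 8 with no filter (6.15%, beside 0.86%), 2 with the replicate block (3.03%, beside 0.849%), and 0 to 4 without 1 fish (0% to 5.48%, beside 0.116% to 1.37%). For failed against passed RG cells, 2 were called, 1 with no filter (0.758%, beside 0.176%), 9 with the replicate block (17%, beside 6.42%), and 1 to 4 without 1 fish (1.85% to 6.45%, beside 4.54% to 11.4%). Between ccnd1 classes 0 were called in every alternative. The cause of these changes was not tested. Members with a higher share of cells in RG in every fish numbered 8, and 7 after thinning. RG sums of 5 to 23 cells limit rare genes, since 3 reads over the RG gate are 0.161 CPM, and 57 members were not tested.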
